A study of Mus musculus with 12 samples.

Results

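Gata2, Gata3, Tfcp2l1, Elf3, Elf5, Grhl2, Emx1 and Emx2 encode transcription factors of the ureteric bud, the epithelial outgrowth that branches to form the renal collecting ducts, and of the collecting duct itself. These 8 genes were taken by symbol from the tables of estimated counts and of TPM (transcript abundance scaled for length and library total), which list 32692 genes. All 8 had enough reads to be among the 18763 genes tested. The series sequenced whole kidneys of untreated mice of WT genotype at 2 ages, Day 8 and Day 0, with no transgene and no treatment at either age. Its stated question is which transcripts differ over the neonatal period. The labels list 6 samples per age, and 5 day 8 and 6 day 0 libraries had a column in the tables. One day 8 sample was not analysed here.

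The GATA factors are zinc finger proteins, and Gata3 is required in the nephric duct and ureteric bud, where Ret, the receptor of the branching signal GDNF, depends on it. Tfcp2l1 and Grhl2 belong to the grainyhead family. Tfcp2l1 takes part in setting apart principal cells, which reabsorb water and sodium, from intercalated cells, which transport acid and base, and Grhl2 controls genes of epithelial junctions and barrier. Elf3 and Elf5 are ETS factors of epithelial cells, and Elf5 marks principal cells. Emx1 and Emx2 are homeodomain proteins, and mice without Emx2 form no kidneys because the ureteric bud fails.

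Stretches of DNA before a transcript start of Gata2, Gata3 and Tfcp2l1 are shown because these genes gave the clearest readouts described here. Gata2 is the member with the most variable apparent transcript length, Gata3 the one with the largest change and Tfcp2l1 the one with the highest level. Each stretch is the 250 bases before a RefSeq transcript start (GRCm38.p6), read 5′ to 3′ along the gene's strand. Capitals mark matches to any of 6 short motifs searched on both strands.
Gata2, chr6:88193641-88193890, plus strand: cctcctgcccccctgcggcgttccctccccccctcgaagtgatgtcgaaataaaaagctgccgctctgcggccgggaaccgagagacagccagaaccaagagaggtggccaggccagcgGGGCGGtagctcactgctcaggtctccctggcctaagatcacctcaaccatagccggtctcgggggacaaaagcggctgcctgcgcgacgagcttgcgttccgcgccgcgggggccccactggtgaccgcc
Gata3, chr2:9878601-9878850, minus strand: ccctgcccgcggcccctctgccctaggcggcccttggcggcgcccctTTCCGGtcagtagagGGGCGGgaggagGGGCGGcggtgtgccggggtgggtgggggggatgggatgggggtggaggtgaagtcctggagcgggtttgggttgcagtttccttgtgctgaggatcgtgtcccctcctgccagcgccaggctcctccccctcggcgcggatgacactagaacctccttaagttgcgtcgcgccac
Tfcp2l1, chr1:118627695-118627944, plus strand: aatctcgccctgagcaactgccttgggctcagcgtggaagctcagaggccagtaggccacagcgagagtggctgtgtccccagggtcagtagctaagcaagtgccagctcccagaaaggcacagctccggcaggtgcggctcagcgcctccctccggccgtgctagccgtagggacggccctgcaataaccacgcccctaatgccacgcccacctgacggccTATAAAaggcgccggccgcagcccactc

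The windows of Gata2, Gata3 and Tfcp2l1 held 67.2%, 70.0% and 65.2% G and C bases, with 22, 19 and 16 CpG dinucleotides, whereas the median of the 32817 windows of this length was 52.4% and 6 CpG. The Gata2 window shown, before the more upstream of its RefSeq starts, had a GC box (GGGCGG) from 131 to 126 bases before that start. The window before the other Gata2 start, position 88198664, is not shown and had 74% G and C bases, 24 CpG dinucleotides and GC boxes from 74 to 69 and from 63 to 58 bases before it. The Gata3 window had a pair of them, from 188 to 183 and from 176 to 171 bases before the start, and the core ETS motif CCGGAA on the opposite strand from 203 to 198. Another annotated Gata3 transcript starts farther upstream, at position 9890034, so this window lies inside the gene's span. It also lies inside the antisense gene Gm13256. The Tfcp2l1 window had a TATA box (TATAAA) from 28 to 23 bases before the start. A GC box occurred in 32.7% of all windows, the ETS motif in 12% and the TATA box in 12.4%. The GATA motif AGATAA, the grainyhead motif AACCGGTT and the homeodomain motif TAATTA, present in 9.99%, 0.116% and 4.85% of all windows, did not occur in these 3. No motif searched contains another. RefSeq windows were matched for 7 of the 8 genes, all but Grhl2.

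Library totals were between 18222170 and 24428652 estimated counts. Of all tested genes, 57.6% were called between the ages by edgeR's quasi-likelihood test at a Benjamini-Hochberg adjusted p under 0.05: 27.5% were higher and 30.1% lower at day 8. Counts scaled by TMM to a fixed library size and given as CPM had separate ranges at the 2 ages for 40.5% of genes. Some libraries also carried transcripts of other tissues. Ucp1, a gene of brown fat, stood at 33.2, 25.7 and 12.3 CPM in day 8 libraries 3, 4 and 5, at 3.44 and 3.05 CPM in day 8 libraries 1 and 2, and at no more than 0.0548 CPM at day 0. Alb, the albumin gene of liver, stood between 0.688 and 53.5 CPM at day 8, highest in library 3. At day 0 it stood between 90.3 and 158 CPM in libraries 1 to 3 and between 1.51 and 3.60 CPM in libraries 4 to 6. The part of either tissue in the results was not tested. Xist, the RNA that coats the inactive X of females, stood at 3092 and 2443 CPM in day 8 libraries 1 and 2 and at no more than 0.439 CPM in day 8 libraries 3 to 5. At day 0 it lay between 2936 and 3292 CPM in libraries 2, 5 and 6 and at or under 4.85 CPM in libraries 1, 3 and 4. Both ages thus hold libraries of both sexes. Dropping day 8 libraries 3 to 5, which had the most Ucp1 and are also the ones low in Xist, ended the call of Elf3 and of no other member called, and so did dropping the 3 day 0 libraries with the most Alb. Sex and fat transcripts cannot be told apart among the day 8 libraries.

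Of the 8 factors, 3 were higher at day 8 (Tfcp2l1, Elf3 and Emx1), 4 were lower (Gata2, Gata3, Elf5 and Emx2) and Grhl2 was not called. The background shares are 27.5% of genes higher and 30.1% lower, so that 7 calls among 8 genes stand beside 57.6% called among all. None of the 8 changed as much as 2-fold in the edgeR fit with TMM. The 95% interval of the Gata3 log2 fold change, -1.10 to -0.86, included a 2-fold change, and with library size only it was -1.04. Their median log2 fold change was -0.25, against -0.01 over all tested genes, and their median absolute change was 0.51, against 0.30. For 6 members the CPM ranges of the ages were apart, as they were for 40.5% of all genes. With TPM the ranges were apart for 4 members (Gata2, Gata3, Emx1 and Emx2). These are whole kidneys, in which fewer cells of a type and less RNA per cell cannot be told apart.

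**Figure D1:**
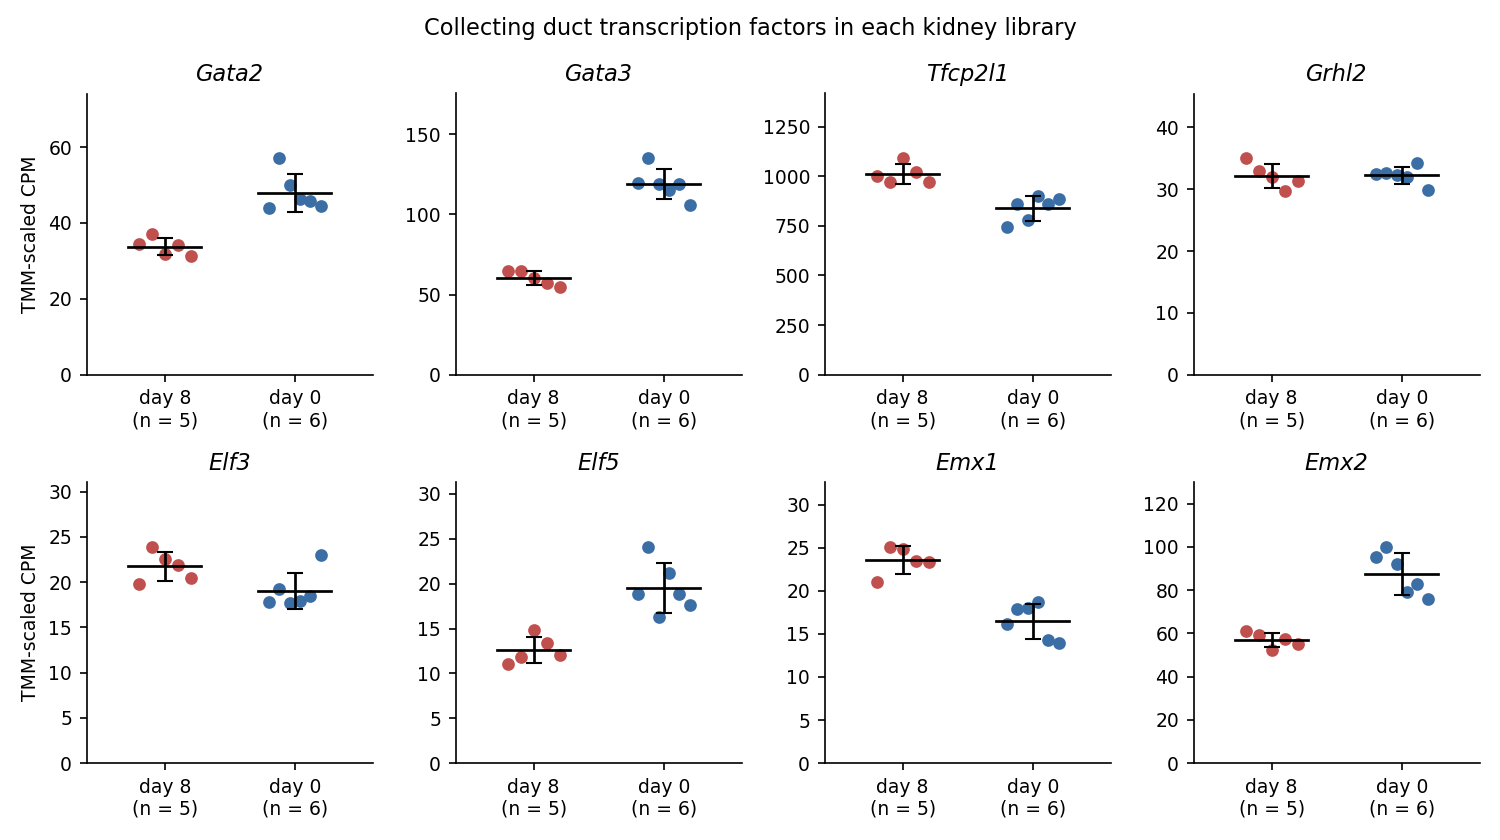
TMM-scaled CPM of the 8 collecting duct transcription factors, one panel per gene, with day 8 (5 libraries) left of day 0 (6 libraries). Points are libraries and bars are the mean with SD. The ages overlap for Elf3 and Grhl2 and are apart for the other 6 genes.

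Gata3, the GATA factor upstream of Ret in the nephric duct, had the largest change among the 8 genes. It stood at 64.5, 64.7, 60.3, 57.5 and 54.7 CPM in day 8 libraries 1 to 5, whereas the 6 day 0 libraries had a lowest value of 106, a median of 119 and a highest value of 135 CPM. Every day 8 library lay well below every day 0 library. Mean levels were 60.3 ± 4.35 CPM in day 8 and 119 ± 9.61 CPM in day 0 kidneys (SD, n = 5 and 6). The fitted log2 difference was -0.98 (SE 0.06), a 1.97-fold lower level at day 8 (edgeR quasi-likelihood test, adjusted p = 2.11e-09). Gata3 spans chr2:9857078-9890034 on the minus strand. 9230102O04Rik, a gene on the same strand inside this span, had 139 counts over the day 8 libraries and 256 over the day 0 libraries, where Gata3 itself had 6765 and 14231. On the opposite strand, 4930412O13Rik had 73 counts at day 8 and 93 at day 0.

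Gata2, the other GATA factor, also fell. Its values in day 8 libraries 1 to 5 were 34.4, 37.0, 31.8, 34.1 and 31.3 CPM, against a lowest value of 44.0, a median of 46.0 and a highest value of 57.0 CPM at day 0. The ages did not overlap, and the single highest library was day 0 library 2. Mean Gata2 was 33.7 ± 2.31 CPM in day 8 and 47.9 ± 4.95 CPM in day 0 kidneys (SD), a log2 fold change of -0.50 with an SE of 0.07, or 1.42-fold lower at day 8 (edgeR, adjusted p = 1.50e-05). Gata2 spans chr6:88193891-88207032 on the plus strand.

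Per unit of transcript length, Gata2 averaged 16.4 ± 1.74 TPM at day 8 and 24.7 ± 4.87 TPM at day 0, and Gata3 averaged 33.5 ± 3.66 TPM at day 8 and 56.4 ± 4.58 TPM at day 0. Gata3 made up 67.1% ± 2.96 of the summed TPM of the pair at day 8 and 69.7% ± 4.65 at day 0, a difference of -2.58 percentage points (exact two-sided permutation test over 462 splits, p = 0.301, also 0.301 adjusted over 3 pairs). Computed from CPM, the Gata3 share lay between 62.8% and 65.5% at day 8 and between 70.4% and 73.1% at day 0, a difference of -7.18 points with the ages apart (exact p = 0.00216, the smallest that 462 splits allow). Whether the balance of this pair differs between the ages thus depended on the unit.

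With limma on log2(TPM + 1) the log2 fold change was -0.55 for Gata2 and -0.74 for Gata3, against -0.50 and -0.98 by edgeR. What made the share depend on the unit was not tested. Counts per TPM of Gata2, which follow the transcript length the authors' quantification assigned, varied between libraries more than those of nearly all genes. Scaled to their own mean of 1, they were 1.14, 1.17, 1.12, 0.966 and 1.01 in day 8 libraries 1 to 5. In day 0 libraries 1 to 6 they were 0.904, 0.787, 0.770, 1.15, 1.16 and 0.815. Day 0 libraries 4 and 5 were as high as day 8 libraries 1 to 3, and the other 4 day 0 libraries were lowest, so the ages overlapped. The coefficient of variation over the 11 libraries was 16%, above that of 98.5% of 11929 genes with at least 100 counts in every library, whose median was 3.41%. The other 7 factors lay between 1.28% and 6.48%. Annotated protein-coding Gata2 transcripts measure 3571, 3135 and 423 bases, and the longer ones start at separate sites, positions 88198334 and 88193891 of chromosome 6. Which transcripts were present was not tested.

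**Figure D2:**
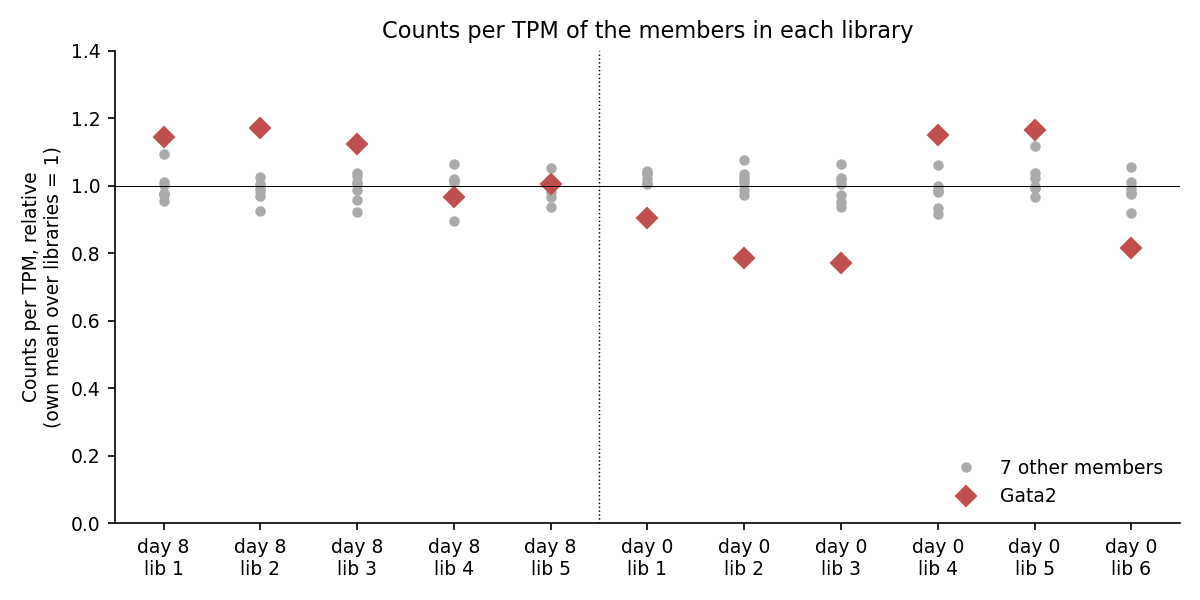
Counts per TPM of each factor in each library, divided by the gene's own mean over the 11 libraries, with day 8 libraries left of day 0 libraries. Gata2 ranges between 0.770 and 1.17, and the other genes stay closer to 1.

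Tfcp2l1, the grainyhead family factor of principal and intercalated cell patterning, was the most abundant of the 8 at both ages. Day 8 libraries 1 to 5 had 1002, 969, 1090.2, 1021 and 971 CPM, and the day 0 libraries had a lowest value of 744, a median of 858 and a highest value of 902 CPM. All 5 day 8 libraries lay above the 6 day 0 libraries. The means were 1011 ± 49.5 CPM in day 8 and 838 ± 62.7 CPM in day 0 kidneys, at a log2 fold change of 0.27 (SE 0.06), or 1.21-fold higher at day 8 (edgeR, adjusted p = 0.000687). In TPM the ranges overlapped, between 116 and 163 at day 8 and between 85.3 and 121 at day 0. Tfcp2l1 lies at chr1:118627945-118685168 on the plus strand.

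Grhl2, the grainyhead factor of epithelial junctions, was the one member not called. It stood at 35, 32.9, 32.0, 29.7 and 31.4 CPM in day 8 libraries 1 to 5, and the day 0 libraries had a lowest value of 29.9, a median of 32.4 and a highest value of 34.3 CPM. The ages overlapped almost fully, with means of 32.2 ± 1.94 CPM in day 8 and 32.3 ± 1.41 CPM in day 0 kidneys. The fitted log2 difference was -0.00 (SE 0.05), with a 95% interval of -0.11 to 0.10 (edgeR, adjusted p = 0.96). Its mean level was 10.1 ± 0.907 TPM at day 8 and 9.12 ± 1.08 TPM at day 0. The gene spans chr15:37233036-37363569 on the plus strand, where the antisense gene Gm16136 overlaps it by 274 bases and had 380 counts at day 8 and 590 at day 0, against 3612 and 3870 for Grhl2.

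Elf5, the ETS factor of principal cells, was lower at day 8. Day 8 libraries 1 to 5 had 11, 11.8, 14.8, 13.4 and 12.1 CPM, against a lowest value of 16.3, a median of 18.9 and a highest value of 24.1 CPM at day 0. The ages were apart in CPM, at 12.6 ± 1.51 CPM for day 8 and 19.5 ± 2.78 CPM for day 0, while they overlapped in TPM, at 9.78 ± 1.90 TPM for day 8 and 13.3 ± 2.19 TPM for day 0. The fitted log2 difference was -0.62 (SE 0.10), or 1.54-fold lower at day 8 (edgeR, adjusted p = 7.27e-05). Elf5 lies at chr2:103411688-103450989 on the plus strand.

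Elf3, an ETS factor of epithelial differentiation, gave the weakest call. It stood at 19.8, 23.9, 22.6, 21.9 and 20.5 CPM in day 8 libraries 1 to 5, and at a lowest value of 17.7, a median of 18.2 and a highest value of 23.0 CPM at day 0. The overlap came from day 0 library 6 at 23.0 CPM, above 4 of the 5 day 8 libraries. The other 5 day 0 libraries were at or below 19.2 CPM, under every day 8 library. Mean Elf3 was 21.7 ± 1.64 CPM in day 8 and 19.0 ± 2.04 CPM in day 0 kidneys, a log2 fold change of 0.19 with an SE of 0.08 (edgeR, adjusted p = 0.042). Without day 0 library 6 the log2 fold change was 0.27 (adjusted p = 0.00178). The call also held without day 8 library 1 or 5 (0.23 and 0.22) and was lost without any other single library, with log2 fold changes of 0.16 to 0.20 and adjusted p of 0.051 to 0.11. Elf3 lies at chr1:135253575-135258568 on the minus strand.

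Within the ETS pair, Elf5 made up 38.4% ± 2.86 of the summed TPM at day 8 and 52.1% ± 4.15 at day 0. The shares lay between 35.1% and 42.9% at day 8 and between 45.8% and 56.9% at day 0, so the ages were apart. The difference was -13.7 percentage points (exact two-sided permutation test, p = 0.00433, adjusted p = 0.00649 over 3 pairs). Elf3 was thus the more abundant of the pair per transcript length in every day 8 library.

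Emx2, the homeodomain factor needed for the ureteric bud, was lower at day 8, and its relative Emx1 was higher. Emx2 stood at 61.0, 59.2, 52.5, 57.5 and 55.0 CPM in day 8 libraries 1 to 5, against a lowest value of 75.7, a median of 87.5 and a highest value of 100 CPM at day 0. Its means were 57.0 ± 3.38 CPM in day 8 and 87.5 ± 9.71 CPM in day 0 kidneys, a log2 fold change of -0.62 with an SE of 0.07, or 1.53-fold lower at day 8 (edgeR, adjusted p = 2.62e-06). Every day 8 library was below every day 0 library. Emx2 lies at chr19:59458372-59465357 on the plus strand.

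Its antisense gene Emx2os, at chr19:59425104-59458635, overlaps Emx2 by 264 bases, and it is not stated whether the counting used the strand. Emx2os had 1020 counts over the day 8 libraries and 1372 over the day 0 libraries, where Emx2 had 6407 and 10475. Its mean was 9.08 ± 0.583 CPM in day 8 and 11.6 ± 2.35 CPM in day 0 kidneys (log2 fold change -0.35) (edgeR, adjusted p = 0.028). Emx2os overlapped between the ages, since the day 8 libraries stood between 8.42 and 9.79 CPM and day 0 libraries 1 and 6 at 8.96 and 8.22 CPM.

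Emx1 stood at 21.0, 25.1, 24.9, 23.5 and 23.4 CPM in day 8 libraries 1 to 5, and at a lowest value of 13.9, a median of 17.0 and a highest value of 18.7 CPM at day 0. The ages were apart, with every day 8 library higher. Mean Emx1 was 23.6 ± 1.65 CPM in day 8 and 16.5 ± 2.04 CPM in day 0 kidneys, a log2 fold change of 0.52 with an SE of 0.08, or 1.43-fold higher at day 8 (edgeR, adjusted p = 6.19e-05). Emx1 lies at chr6:85187438-85204462 on the plus strand.

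Emx2 made up 50.9% ± 2.81 of the summed TPM of the Emx pair at day 8 and 70.0% ± 2.77 at day 0. All day 8 shares, between 47.2% and 54.6%, lay below all day 0 shares, between 64.6% and 72.4%. The difference was -19.1 percentage points (exact two-sided permutation test, p = 0.00216, the smallest that 462 splits allow, adjusted p = 0.00649). At day 8 the pair was near parity, at 28.8 ± 1.97 TPM for Emx2 and 27.9 ± 2.44 TPM for Emx1, whereas day 0 kidneys had 39.2 ± 1.38 TPM of Emx2 and 16.9 ± 2.24 TPM of Emx1.

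**Figure D3:**
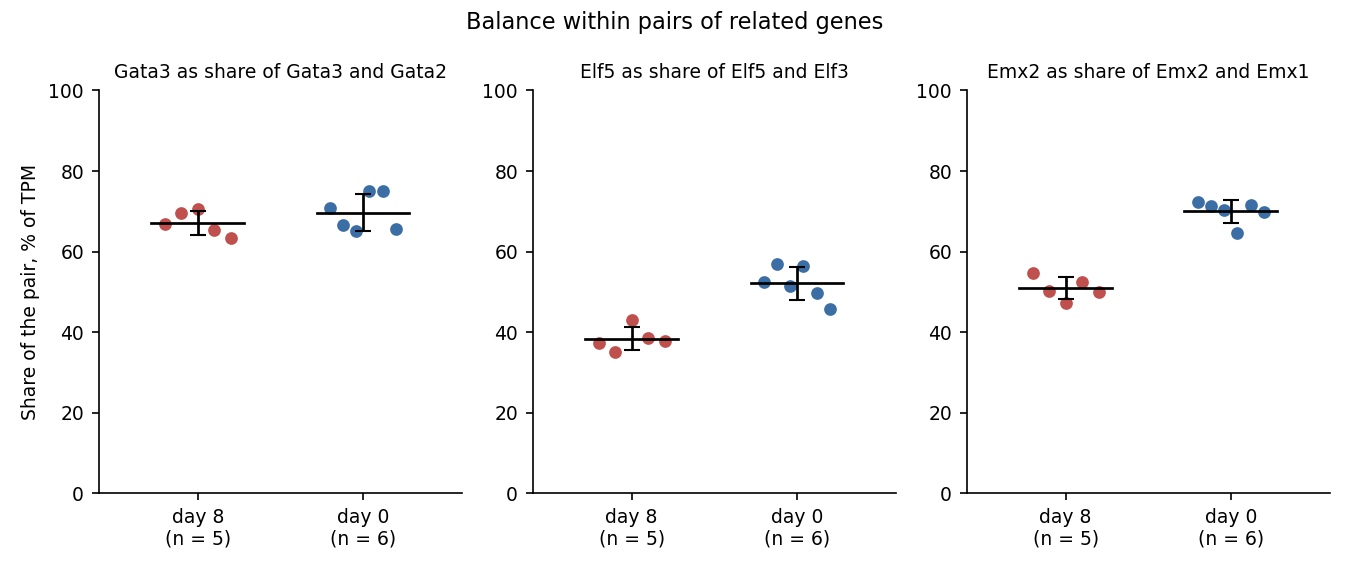
Share of one gene in the summed TPM of its pair, in percent, for Gata3 of Gata3 and Gata2, Elf5 of Elf5 and Elf3, and Emx2 of Emx2 and Emx1, with day 8 left of day 0. Points are libraries and bars are the mean with SD. The ages overlap for the Gata pair and are apart for the Elf and Emx pairs.

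**Figure D4:**
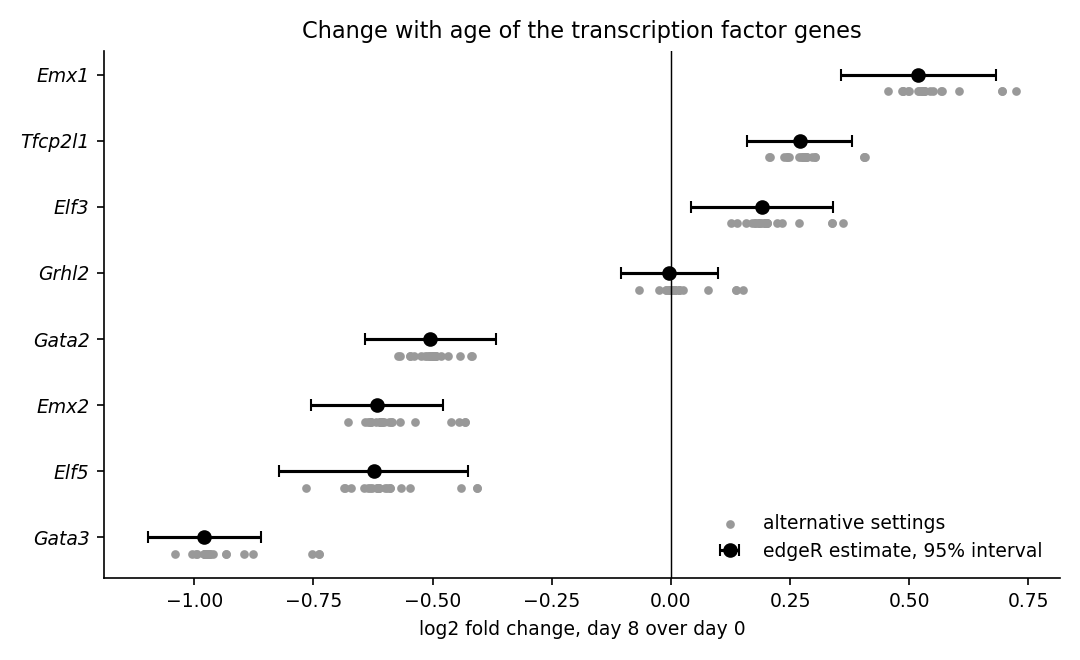
Log2 fold change of each factor, day 8 minus day 0, from the edgeR fit on all tested genes, with its 95% interval. Gata3 is lowest at -0.98, Grhl2 lies at 0 and Emx1 is highest at 0.52.

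The order of the 8 factors by mean TPM at day 8 was Tfcp2l1, Gata3, Emx2, Emx1, Gata2, Elf3, Grhl2 and Elf5. The ranges of these neighbours overlapped for Gata3 and Emx2, Emx2 and Emx1, Gata2 and Elf3, and Grhl2 and Elf5. Within single libraries, Gata3 was above Emx2 in all 5. Emx2 was above Emx1, Gata2 above Elf3 and Grhl2 above Elf5 in 3 each. At day 0 the order was Tfcp2l1, Gata3, Emx2, Gata2, Emx1, Elf5, Elf3 and Grhl2, and neighbours overlapped all the way between Gata2 and Grhl2. There, Emx1 was above Elf5 and Elf3 above Grhl2 in all 6 libraries, Gata2 above Emx1 in 5 and Elf5 above Elf3 in 4. Tfcp2l1, at 140 ± 17.1 TPM at day 8 and 106 ± 15.1 TPM at day 0, stood clear of Gata3 at both ages. The lowest mean was that of Elf5 at day 8 and that of Grhl2 at day 0.

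For each factor, the gene most like it was sought among 16710 tested genes with a mean of at least 1 CPM, by the root mean square difference between log2 CPM profiles over the 11 libraries, each centred on its own mean. The nearest were Homer3 for Gata2 (0.06), Sulf2 for Gata3 (0.07), She for Tfcp2l1 (0.04), Snap47 for Elf3 (0.04), Lypd6b for Elf5 (0.11), Agfg1 for Grhl2 (0.04), Tmem102 for Emx1 (0.08) and Dctpp1 for Emx2 (0.06). The second nearest were Tarbp1 for Gata2, Lrch2 for Gata3, Npr1 for Tfcp2l1, Slc27a4 for Elf3, Gm8623 for Elf5, Taf1 for Grhl2, Pnpla7 for Emx1 and Hnrnpab for Emx2. None of these 16 genes is another of the 8 factors, which with 2 places each among 16710 genes would be usual for genes taken at random.

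A further 7 genes are known in mouse to depend on, or be bound by, one of the 8 factors. Ret, which needs Gata3 in the nephric duct, fell to 2.02 ± 0.444 CPM at day 8, against 35.6 ± 1.56 CPM at day 0, 17.7-fold lower (edgeR, adjusted p = 8.38e-14). Aqp2, the vasopressin-regulated water channel gene that Gata2 activates in the collecting duct, stood at 144 ± 35.1 CPM in day 8 and 146 ± 34.6 CPM in day 0 kidneys (adjusted p = 0.95). Jag1, a Notch ligand gene linked to Tfcp2l1, was 1.10-fold lower at day 8 (adjusted p = 0.0071).

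The other 4 of these 7 genes are tied to Grhl2. Cdh1, which encodes E-cadherin, stood at 317 CPM in day 8 and 315 CPM in day 0 kidneys (edgeR, adjusted p = 0.87). Cldn4, a tight junction gene, was 1.21-fold lower at day 8 (adjusted p = 0.0041), and Rab25, a gene of vesicle transport, stood at 12 CPM in day 8 and 10.1 CPM in day 0 kidneys (adjusted p = 0.061). Ovol2, a zinc finger factor gene, was 1.61-fold higher at day 8, at 0.925 CPM against 0.574 CPM at day 0 (adjusted p = 0.012). Of the 7, then, 1 rose, 3 fell and 3 were not called, beside 27.5% and 30.1% of all genes. The count of those that rose was 2 without day 8 library 5 or day 0 library 2 or 6. It was 0 without day 8 libraries 3 to 5, with the CPM filter or at an adjusted p of 0.01. The CPM filter tests only genes at 1 CPM or more in at least 5 libraries, and Ovol2 averaged less at both ages. With limma on log2(TPM + 1), 1 fell, and with no filter on low values 2 rose.

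Of 22 other transcription factors of the ureteric bud and collecting duct, 5 were higher at day 8, 12 were lower and 5 were not called, with a median log2 fold change of -0.25. Over all tested genes, 27.5% were called higher and 30.1% lower. Etv4, a target of Ret signalling, had 2.34 CPM in day 8 and 32.6 CPM in day 0 kidneys, 13.9-fold lower, and Sox9, a tip factor, had 3.61 CPM in day 8 and 48.5 CPM in day 0 kidneys, 13.5-fold lower. Both also stand in the list of ureteric bud tip genes, as does Ret. Nfat5, the factor of the response to hypertonicity, was 1.26-fold higher and Mecom was 1.16-fold lower. Relatives of the 8 factors in their own families numbered 13, and of 10 tested, 2 rose, 6 fell and 2 were not called, with a median of -0.30, and 1 rose without day 8 libraries 3 to 5. Grhl3 was 3.21-fold and Gata5 2.41-fold lower at day 8, Elf1 was 1.17-fold higher, and Ubp1 stood at 101 CPM in day 8 and 95.8 CPM in day 0 kidneys (edgeR, adjusted p = 0.10).

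Marker lists of the epithelia that express these factors differed in direction. Their counts stand beside 27.5% of all tested genes called higher and 30.1% lower. All 11 ureteric bud tip genes were lower at day 8, with a median log2 fold change of -1.57 and a summed level of 219 to 255 CPM at day 8 against 503 to 571 CPM at day 0. Among them, Spry1 and Dusp6, both feedback inhibitors of the growth factor signal, fell 1.16-fold and 1.20-fold. Of the 11, limma on log2(TPM + 1) called 7 lower, or 8 with no filter on low values. Of 16 intercalated cell genes, 14 rose, 1 fell and 1 was not called, with a median of 0.66 and a sum of 1257 to 1386 CPM at day 8 against 733 to 855 CPM at day 0. The anion exchanger gene Slc26a4 rose 3.77-fold, the aquaporin gene Aqp6 2.74-fold, and the carbonic anhydrase genes Car12 and Car2 1.91-fold and 1.77-fold. The intercalated cell gene that fell was Kit and the gene not called was Foxi1.

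Of 14 principal cell genes, 8 rose, 2 fell and 4 were not called, with a median of 0.31 and a sum of 984 to 1151 CPM at day 8 against 684 to 894 CPM at day 0. Slc14a2, a urea transporter gene, was 10.2-fold higher at day 8, Hsd11b2 2.64-fold and Kcnj1, the ROMK potassium channel gene, 1.81-fold. The 4 not called were Aqp2, among the most abundant of the list, and Scnn1a, Scnn1g and Fxyd4. Kcnj1, at 195 CPM in day 8 and 108 CPM in day 0 kidneys, also stands in the list of distal nephron genes. The principal cell genes that fell were Scnn1b and Stc1, chosen here after their values were seen. Only 1 fell when either set of libraries with Ucp1 or Alb was dropped, and none with limma on TPM. Of 13 general duct epithelium genes, 4 rose, 4 fell and 5 were not called, with a median of 0.11. The principal cell and duct counts stand beside 57.6% of all tested genes called, 27.5% higher and 30.1% lower. Cdh16, the kidney cadherin gene, was 1.87-fold higher and the keratin gene Krt18 1.91-fold lower at day 8. Elf5, which marks principal cells, was lower at day 8 while 8 of those 14 genes were higher.

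**Figure D5:**
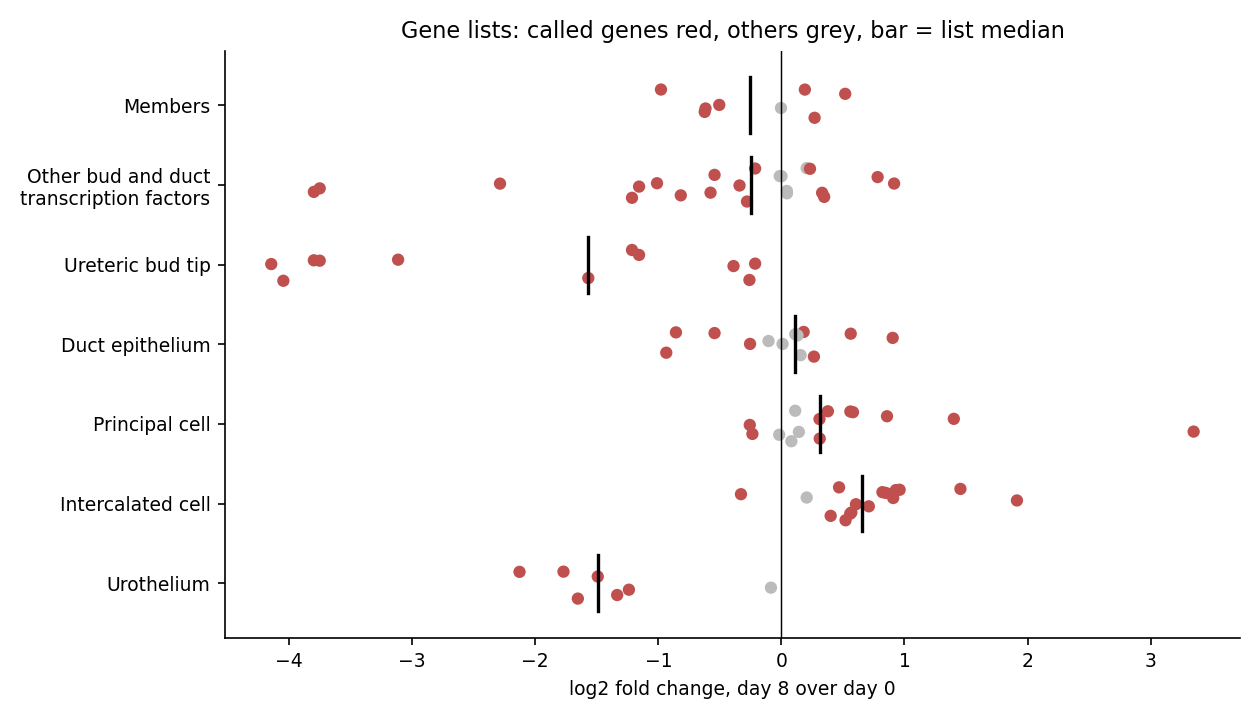
Log2 fold changes, day 8 minus day 0, of the genes in each list, with the median of each list marked. The 11 ureteric bud tip genes lie below 0 and 14 of 16 intercalated cell genes were called higher, beside 27.5% of all tested genes. The median of the 8 factors, -0.25, lies between the medians of those lists, -1.57 and 0.66, while single factors overlap both lists.

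Several of the factors are also expressed by other cells of the kidney. Gata2 is known in endothelium, mast cells and sympathetic and chromaffin cells, and Gata3 in lymphocytes, mesangium, sympathetic cells and urothelium. Over all tested genes, the shares called were 27.5% higher and 30.1% lower. All 8 endothelial genes were higher at day 8, with sums of 1038 to 1159 CPM against 770 to 875 CPM at day 0, and Plvap was 1.79-fold higher. All 5 tested mast cell genes of 7 were lower, with sums of 18 to 59.5 CPM at day 8 against 212 to 246 CPM at day 0, most of it from Hdc, the histidine decarboxylase gene. Hdc itself averaged 33.6 ± 18.3 CPM at day 8 and 227 ± 12.3 CPM at day 0. Ms4a2, a gene of the mast cell IgE receptor, was 3.22-fold lower, at 0.867 CPM at day 8 against 2.81 CPM at day 0. Cpa3, Tpsb2 and Cma1 averaged 0.462, 0.640 and 0.288 CPM at day 8, against 1.01, 1.08 and 0.716 CPM at day 0. Only 2 of the mast cell genes were called lower with the CPM filter or without day 0 libraries 1 to 3. With limma on log2(TPM + 1), 3 were. The CPM filter leaves untested any gene that lacks 1 CPM in at least 5 libraries. DESeq2 and the edgeR fit with no filter called 1 mast cell gene higher. Mcpt4, a mast cell protease gene too low to test, had 25 counts over the day 8 libraries and 4 over the day 0 libraries.

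Of 7 urothelial genes, 6 were lower at day 8 and 1 was not called, with sums of 20.5 to 31.1 CPM at day 8 against 48.9 to 70.3 CPM at day 0. This count and those that follow stand beside 27.5% of all tested genes called higher and 30.1% lower. The uroplakin genes Upk2 and Upk1a fell 4.37-fold and 3.41-fold. Of 8 mesangial and smooth muscle genes, 2 rose, 4 fell and 2 were not called, with sums of 1138 to 1345 CPM at day 8 and 1284 to 1509 CPM at day 0. The count of those that rose was 1 without day 8 library 1 or 2, or day 0 library 2, 4 or 5. Of 8 lymphocyte genes, 2 had enough counts to be tested, and Trac was 6.96-fold higher at day 8. The list sums were 32.4 to 39.9 CPM at day 8 against 25.9 to 36.3 CPM at day 0. Most of these sums came from Thy1, at 29.5 CPM in day 8 and 28.7 CPM in day 0 kidneys (edgeR, adjusted p = 0.75). The untested genes all had more counts over the day 8 than the day 0 libraries, as with Cd3e (25 against 3) and Trbc2 (33 against 4). With no filter edgeR called 4 of the lymphocyte genes higher, and DESeq2 3. Of 8 sympathetic and chromaffin genes, edgeR's quasi-likelihood test covered 2 and called neither, with an adjusted p of 0.059 for Chga and 0.39 for Npy. Other fits called some: limma-voom 1 higher, DESeq2 and the edgeR fit with no filter 2 lower, edgeR without day 8 library 3 or without day 0 libraries 1 to 3 1 higher, and edgeR without day 8 library 1 1 lower. The list summed to 33.4 CPM in day 8 library 1, to 1.83 to 2.80 CPM in the other 4 day 8 libraries and to 2.15 to 7.07 CPM at day 0. Most of its day 8 counts came from Npy, with 899 over the day 8 libraries and a mean of 7.78 ± 13.9 CPM. Chga, the next highest, had 66 counts over the day 8 libraries. The genes Th, Dbh and Hand2 of this list had at most 2 counts each over the day 8 libraries and 21 over the day 0 libraries. No gene of these lists was at 0 in all libraries. Of 8 distal nephron genes, 6 rose and 2 were not called, and of 8 proximal tubule genes, 7 rose and 1 was not called. The part of these cells in the changes of Gata2 and Gata3 was not tested.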

How the data were processed

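Total RNA of mouse kidneys was sequenced after ribosomal depletion with a stranded kit, per the labels' protocols. The authors deposited estimated counts and TPM per gene. Per the submitters' processing notes, the build was mm10 and the tools were Picard, DRAGEN, fastp and FastQC. The counter, the annotation and any use of strand in counting are not given in the sources used here. Between 12.1% and 13.1% of the deposited counts per library were not whole, with any remainder counted, and all were rounded.

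Counts of all genes were fitted with edgeR 4.0.16 in R 4.3.3 (TMM, filterByExpr, robust quasi-likelihood fit with age as the term), with Benjamini-Hochberg adjustment over 18763 genes at 0.05. CPM are TMM-scaled. The test was designed for 6 against 6 libraries and was run on 5 against 6. The labels do not say that each library came from its own animal. Each age holds libraries high and low in Xist, so not all came from 1 animal, but the p-values may reflect spread that is in part technical. All 25 same-age pairs differed beyond sampling noise (chi-square per degree of freedom 4.64 to 41.6). Shares of gene pairs were compared by an exact permutation test over libraries. Alternatives were DESeq2 1.42.0, limma-voom (limma 3.58.1), other scalings and filters, limma on log2(TPM + 1) and log2(TPM + 0.1), and leaving out each library. The fitting step was tested on simulated data.

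The 8 genes and the 15 gene lists were chosen with earlier results of these data known. Genes named are the 8, all genes tied to them, from each list the 2 most changed and the 2 most abundant, and the 2 nearest profiles, though not every gene so chosen is printed. Coordinates and overlaps are from GENCODE vM21 on GRCm38. Python 3.11.15 with pandas 2.3.3, scipy 1.17.1 and matplotlib 3.10.9 made tables and figures.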

Additional observations from a re-analysis of the deposited data

Results flagged for a closer look

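In 38 groups of libraries tested for a value standing apart (8 genes in CPM and TPM and 3 shares, at each age), 3 had one, where chance gives about 1 in 20. Elf3 stood at 23.0 CPM in day 0 library 6, and the next highest day 0 library had 19.2 CPM. Emx1 stood at 21.3 TPM in day 0 library 4, and the next highest day 0 library had 16.5 TPM. The Emx2 share of the Emx pair was 64.6% in the same library, and the next lowest was 69.9%. That library was the highest in Emx1, so both values share a measurement. The cause of these values was not tested.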

How the results depend on the processing

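The calls and directions of Gata2, Gata3, Tfcp2l1, Elf5, Emx1 and Emx2 held under all alternatives run, including leaving out each library. Their log2 fold changes without one library ranged from -0.54 to -0.44 for Gata2, -1.0 to -0.93 for Gata3, 0.24 to 0.30 for Tfcp2l1, -0.69 to -0.55 for Elf5, 0.48 to 0.57 for Emx1 and -0.64 to -0.57 for Emx2. Over the other alternatives the ranges were wider. They were -0.57 to -0.42 for Gata2, -1.04 to -0.74 for Gata3 and 0.21 to 0.41 for Tfcp2l1. For Elf5 the range was -0.77 to -0.41, for Emx1 0.46 to 0.72 and for Emx2 -0.68 to -0.43. The call of Elf3 (0.19) was lost with library size only (0.13), at an adjusted p of 0.01 (0.19), without day 8 libraries 3 to 5 (0.20), without day 0 libraries 1 to 3 (0.14) and without 8 of the 11 single libraries (0.16 to 0.20, with 0.22 to 0.27 for the 3 that kept it). Grhl2, never called, turned positive with DESeq2 (0.0087), RLE factors (0.0085), no filter (0.00323), a CPM filter (0.00399), log2(TPM + 1) with or without a filter (0.14), log2(TPM + 0.1) (0.15), without day 8 libraries 3 to 5 (0.078) and without day 0 libraries 1 to 3 (0.017), and ranged from -0.025 to 0.026 without one library. The Gata3 share differed by -7.18 points from CPM. Over all genes, 2477, 2474 and 2830 were lower at day 8 with log2(TPM + 1), log2(TPM + 0.1) and log2(TPM + 1) without a filter, against 5646, and without one library 5255 to 5589 were lower and 4863 to 5289 higher. The cause was not tested; the median of all genes was 0.13 with log2(TPM + 1) and -0.01 with TMM. Both sets of libraries were left out after seeing the data. No paired analysis was possible because the sample titles' numbers are not shared between the ages.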
